A study of Mus musculus with 24 samples.

Results

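The cytosolic ribosomal proteins are the protein subunits of the ribosome that works outside mitochondria. They were taken here as every gene whose symbol follows the Rpl or Rps pattern (a number with at most 1 letter of a, x, y or l and 1 further digit), plus Rplp0, Rplp1, Rplp2 and Rpsa. The rule found 84 of 21370 genes named on the array. Of these, 51 carry symbols of the large subunit (Rpl and Rplp) and 33 of the small subunit (Rps and Rpsa). The symbols Fau, Rack1 and Rpl36al fall outside the rule and are given only for comparison, and Rpl37 had no named probe here.

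RNA levels came from 24 one-colour arrays. Each of 6 female mice gave its liver, brain, heart and skeletal muscle. In the knockin mice (KI, 3 animals called A, B and C), a CRISPR/Cas9 edit replaced an isoleucine of the telomere protein RAP1 (gene Terf2ip) with arginine, an exchange made to keep the protein from binding telomeres. The wild-type mice (WT, 3 animals called D, E and F) were littermate controls. The labels give the strain of all mice as C57BL6, and per the methods the line had been backcrossed 4 times to C57BL/6N. Mice C and F were 14 months old and the others 15 months old. Each tissue therefore has 3 KI and 3 WT arrays, and whole tissue was used.

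Ribosomes join a small subunit, which reads mRNA, to a large subunit, which makes the peptide bond. Each protein subunit is made by its own gene, and most subunits are needed in 1 copy per ribosome, so their mRNAs tend to be produced together. Their mRNAs typically begin with a run of pyrimidines directly at the start of transcription, the 5' terminal oligopyrimidine (TOP) motif, through which mTOR signalling controls their translation. A few subunits have a second gene, a paralog, that is used in certain tissues. Rpl3l, the paralog of Rpl3, is known from striated muscle.

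The start of transcription is shown for 6 genes, because a pyrimidine run there is known as a shared feature of the family and the paralogs with the largest tissue differences can be set beside it. Sequences are from RefSeq, build GRCm38.p6, which held 63 of the 84 members. Each is 30 bases on the gene's strand, 15 before the start and 15 from it, with the longest run of C and T in capitals. The first 3 are core members with runs of 21, 19 and 14 bases, on the plus strand at chr2:26910792-26910821, chr7:109519180-109519209 and chr9:120571502-120571531.
Rpl7a: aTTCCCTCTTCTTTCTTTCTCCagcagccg
Rpl27a: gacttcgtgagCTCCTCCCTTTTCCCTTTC
Rpl14: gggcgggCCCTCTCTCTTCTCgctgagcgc

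The next 3 are Rps27 (minus strand, chr3:90213634-90213663), its paralog Rps27l (plus strand, chr9:66946071-66946100) and the first listed start of Rpl3l (plus strand, chr17:24727811-24727840).
Rps27: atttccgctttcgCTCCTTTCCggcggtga
Rps27l: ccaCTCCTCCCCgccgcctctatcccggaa
Rpl3l: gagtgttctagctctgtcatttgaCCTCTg

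The runs of Rps27 and Rps27l were 9 bases each. That of Rpl3l was 5 bases, and its second listed start had a run of 4. The runs of Rpl7a, Rpl27a, Rpl14 and Rps27 span the start, while that of Rps27l lies wholly before it and that of Rpl3l after it. A run of at least 8 pyrimidines lay in this window for 28 of the 63 members (44.4%), against 3760 of 27025 genes in the table (13.9%), wherever in the window it lay. A gene with several listed starts was counted by its longest run over them, and for the motifs below by a match at any of them. The median longest run was 7 bases for members and 5 for all genes. The motif CCGGAAG, searched on both strands in the 250 bases before the start, was found in 18 members (28.6%) and in 7.83% of all genes. The letters TATAAA, searched in the same way, were found in 5 members (7.94%) and in 14.3% of all genes. These matches describe letters only and show neither a bound factor nor a cause.

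Levels are log2 values of the deposited processed signal, set relative to each array's 75th percentile, so a difference of 1 between arrays is a doubling. A level of 1 gene's probe cannot be set against that of another gene. The members were among the brightest genes: on every array their median lay between the 97.9th and 98.9th percentile of all named genes. Of the 84 members, 81 were well above background on all 24 arrays. The exceptions were Rpl3l (17 arrays), Rpl39l (15 arrays) and Rpl10l, which is known from testis and was above background on 4 arrays only. Rpl10l was not tested, which leaves 83 members in the tests between tissues.

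Array quality bears on a few values below. Arrays of the same tissue correlated at 0.960 to 0.991 over all named genes. Each tissue carried its own defining markers. The mean of the 7 skeletal myofibre markers was 7.55 to 8.29 in muscle, the 7 cardiomyocyte markers averaged 6.38 to 8.18 in heart, the 7 neuron markers 5.23 to 5.56 in brain, and the 7 hepatocyte markers 8.51 to 9.26 in liver. Transcripts of other cells stood out on 4 arrays. The hepatocyte mean reached 4.64 in the brain of mouse C, while it was at most -0.75 in the other brains. The myofibre mean reached 0.54 in the liver of mouse C and lay between -5.86 and -5.03 in the other livers, with 7 of 7 markers above background in that one. The mammary epithelium mean, over 6 markers, reached 0.05 in the muscle of mouse B and lay between -3.71 and -3.36 in the other muscles. Not all of its markers rose. Over the muscles, Wfdc18 reached 2.50 and Krt18 3.53. Csn3 was well above background on 0 of 6 muscle arrays, and Lalba lay between -2.94 and -2.17. The mean therefore does not settle which epithelium was present. The mean of the 5 adipocyte markers reached 2.47 in the heart of mouse B and lay between -1.74 and 0.46 in the other hearts. Tissue differences were therefore also computed without the first 3 of these arrays and without all 4, choices made after seeing the data. Without all 4, the number of members called was 80 for liver minus brain, 39 for liver minus heart, 51 for liver minus muscle, 81 for brain minus heart, 81 for brain minus muscle and 58 for heart minus muscle, against 79, 39, 54, 81, 81 and 63 with all arrays.

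The median member is given first on each array. In brain, the median of the KI mice A, B and C was 6.10, 6.13 and 6.13, and that of the WT mice D, E and F was 6.15, 5.99 and 6.20. In heart it was 7.04, 6.91 and 7.15 in KI and 7.03, 6.99 and 7.12 in WT. In liver it was 7.51, 7.26 and 7.20 in KI and 7.11, 7.35 and 6.95 in WT. In skeletal muscle it was 7.40, 7.37 and 7.27 in KI and 7.30, 7.46 and 7.43 in WT. Brain lay below the 3 other tissues on every array, without overlap, whereas liver overlapped with both heart and muscle.

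**Figure D1:**
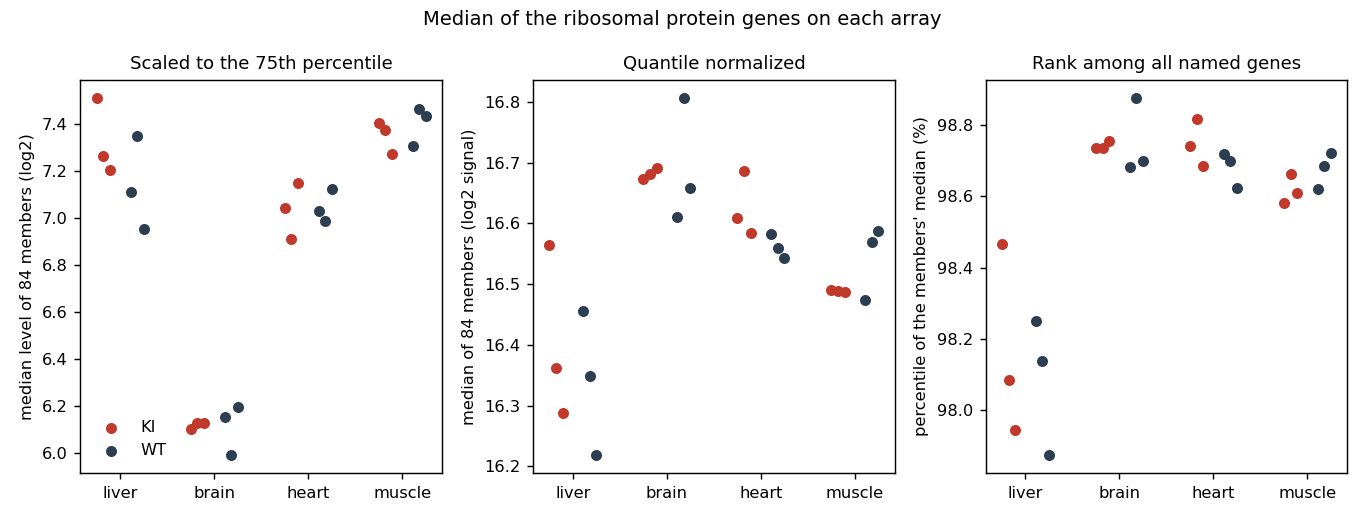
Median level of the members on each of the 24 arrays (points), by tissue and genotype, on 3 scales: log2 relative to the array's 75th percentile, log2 after quantile normalization, and the percentile among all named genes. On the first scale brain lies lowest (5.99 to 6.20), whereas after quantile normalization (16.6 to 16.8) and by percentile (98.7 to 98.9) it lies at or near the top and overlaps with heart, so the order of the tissues depends on the scale.

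On the main scale, 79 of the 84 members had their lowest tissue mean in brain, and 61 had their highest in muscle, 22 in liver and 1 in heart. All 83 members tested differed between tissues by the moderated F-test of limma, where 97.7% of the 17293 genes tested did. Between liver and brain, 78 members were higher in liver and 1 was lower, with a median difference of 1.08. Among all genes 84.6% were called (46.6% higher and 38% lower in liver), with a median of 0.23. This direction turned after quantile normalization (median -0.30). Between brain and heart, 2 were higher in brain and 79 lower (median -0.89, all genes 79.2% called with 34.7% higher and 44.5% lower, median -0.19). Between brain and muscle, 2 were higher in brain and 79 lower (median -1.36, all genes 82.2% with 35.4% higher and 46.8% lower, median -0.28). Between heart and muscle, 2 were higher in heart and 61 lower (median -0.47, all genes 64.4% with 29.8% higher and 34.6% lower, median -0.08). In bulk tissue, fewer cells of a type and less RNA per cell cannot be told apart.

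Liver stood closest to heart and muscle. Between liver and heart, 36 members were higher in liver and 3 lower (median 0.18, all genes 74% with 35.4% higher and 38.6% lower, median -0.04). Between liver and muscle, 12 were higher in liver and 42 lower (median -0.21, all genes 78.9% with 35.8% higher and 43.1% lower, median -0.19). Large and small subunit genes moved alike, with medians of 1.05 and 1.10 for liver minus brain and of -1.37 and -1.33 for brain minus muscle.

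The direction of these shared shifts depended on the scaling. After quantile normalization, the median member was lower in liver than in brain by 0.30 (value -0.30), and brain lay above heart by 0.16 and above muscle by 0.13. By percentile among all named genes, liver had the lowest member medians (97.9 to 98.5), without overlap with the other tissues (98.6 to 98.9). Liver minus heart turned to -0.16 as well, and heart minus muscle came to -0.01. Over the 11609 genes above background on all arrays, the median gene itself moved by 0.42 for liver minus brain under the main scale and by 0.10 under quantile normalization. Relative to that median, the members were 0.67 higher in liver under the first scale and 0.37 lower under the second (value -0.37). A common direction for the whole group between brain and the other tissues is therefore not fixed by these arrays. Arrays of slide 1 alone gave a liver minus brain median of 1.07 (6 and 2 arrays), those of slide 2 a brain minus heart median of -0.82 (4 and 4 arrays), and those of slide 3 a heart minus muscle median of -0.32 (2 and 6 arrays). Liver shared no slide with heart or muscle, nor did brain with muscle, so these 3 comparisons cannot be made within a slide. There slide and tissue can be separated only through the tissues that link the slides. A slide term fitted in that way lowered the calls for liver minus heart and liver minus muscle, as given in the closing section. Liver and brain RNA was also purified with another kit than heart and muscle RNA.

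Apart from the shared shift, the members resembled each other closely. The range of the 4 tissue means had a median of 1.42 over the 81 members above background on all arrays, against 1.88 over all 11609 such genes. After each array was centred on its own member median, the members' range fell to a median of 0.48, against 1.97 over all genes. On that relative scale, 73 of 81 members (90.1%) stayed within a range of 1, against 16.4% of all genes. Centring on the members narrows their own ranges by construction, so these shares are descriptions. Rps25, a small-subunit protein, had a relative range of 0.11, and Rpl30, a large-subunit protein, one of 0.15. These small ranges were singled out after their values were seen.

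The relative scale shows which members departed from the shared shift. It asks whether a gene differed between tissues by more or less than the median member. By the F-test 71 of 83 members differed between tissues on it (97.5% of all genes). Between liver and brain 44 members passed the threshold (83.8% of all genes), between liver and heart 43 (73.7%), between liver and muscle 53 (77.4%), between brain and heart 49 (80%), between brain and muscle 55 (81.6%), and between heart and muscle 46 (63.2%). In each comparison the share of members called was below that of all genes, on a scale that is centred on the members. Most of these departures were small, and a handful of genes, several of them paralogs or their partners, carried the large ones.

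**Figure D2:**
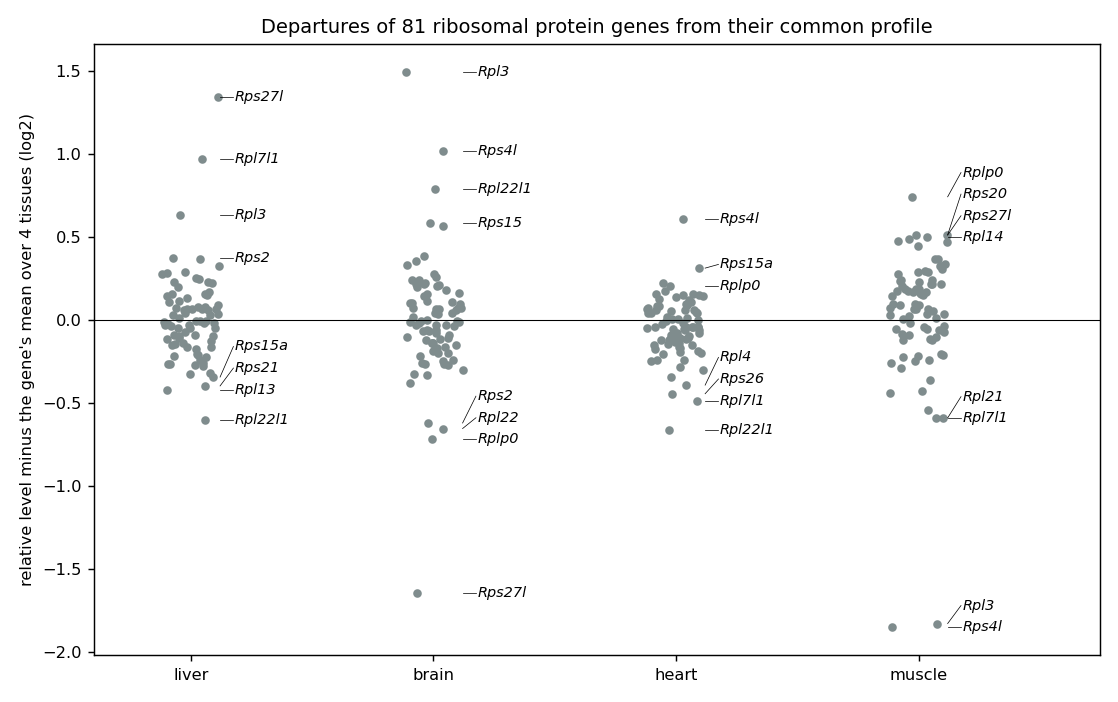
Relative level (log2, each array centred on the member median) of the 81 members above background on all 24 arrays, as each gene's tissue mean minus its own mean over the 4 tissues. Most members lie near 0, while Rpl3 runs from 1.49 in brain to -1.83 in muscle, Rps27l from 1.34 in liver to -1.65 in brain, and Rps4l from 1.02 in brain to -1.85 in muscle.

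Rpl3 and Rpl3l encode alternative versions of a large-subunit protein that lies near the peptidyl transferase centre. They ran in opposite directions across the tissues. In muscle, Rpl3 stood at 3.81, 5.01 and 4.25 in KI mice A, B and C and at 4.48, 3.77 and 4.33 in WT mice D, E and F. In heart it stood at 5.37, 5.89 and 5.39 in KI and at 5.37, 5.48 and 5.32 in WT. In brain it stood at 6.31, 6.35 and 6.35 in KI and at 6.34, 6.24 and 6.45 in WT. In liver it stood at 6.76, 6.53 and 6.31 in KI and at 6.69, 6.76 and 6.50 in WT. No array of muscle reached the heart values and no array of heart reached those of brain or liver, while brain and liver overlapped.

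Relative to the median member, Rpl3 was lower in muscle than in brain by a difference of 3.32 (brain minus muscle, SE 0.18, limma adjusted p = 1.79e-12). It was also higher in brain than in heart by 1.79 (adjusted p = 2.15e-08) and higher in heart than in muscle by 1.53 (adjusted p = 5.57e-07). Liver minus muscle came to 2.46 (adjusted p = 2.14e-10). These directions were the same on the main scale, after quantile normalization and with normexp background correction. Liver minus brain was 0.25 on the main scale and -0.86 relative to the members, so that direction was not settled.

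Rpl3l was listed near background in liver and brain and was bright in both striated muscles. In muscle it stood at 6.34, 6.24 and 6.09 in KI and at 6.06, 6.27 and 6.19 in WT. In heart it stood at 5.14, 3.76 and 5.01 in KI and at 5.04, 4.94 and 4.98 in WT. In brain it lay between -5.56 and -4.82, with 4 of 6 arrays well above background. In liver it lay between -7.10 and -6.16 in 5 mice, none of them well above background, and at -3.22 in mouse C. That liver is the one in which all myofibre markers were above background, and the part of those transcripts in its Rpl3l value was not tested.

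Since 1 of 6 liver arrays measured Rpl3l, its differences from liver are given as bounds, set on each liver array by the lowest signal above background or the gene's own, whichever was higher. Rpl3l was at least 1840-fold higher in muscle than in liver (limma adjusted p = 2.75e-15 on the main scale) and at least 705-fold higher in heart (adjusted p = 2e-14). The size depends on the background correction. Normexp, which adds an offset to each signal, gave log2 differences of -8.99 for liver minus muscle and -7.71 for liver minus heart, which are smaller than these bounds. Relative to the members, brain minus muscle was -10.10 (adjusted p = 4.51e-14) and brain minus heart -9.04 (adjusted p = 3.02e-13), with 4 of 6 brain arrays measured. Heart lay below muscle by a smaller difference of -1.05 (adjusted p = 0.0372). Liver minus brain was -0.81 on the main scale and 0.68 with normexp, so no order of these 2 tissues is given.

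Within heart, mouse B had the highest Rpl3 (5.89) and the lowest Rpl3l (3.76) of the 6 animals. The same array had the highest mean of the 7 cardiomyocyte markers (8.18, against a median of 6.60 over the hearts) and of the adipocyte markers. The cardiomyocyte mean does not show whether all 7 markers rose, and the share of cardiomyocytes was not tested. In muscle, mouse B again had the highest Rpl3 (5.01), on the array with the high mean of the mammary epithelium list. Its Rpl3l (6.24) lay inside the range of the other muscles. The part of other cells in these values was not tested.

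**Figure D3:**
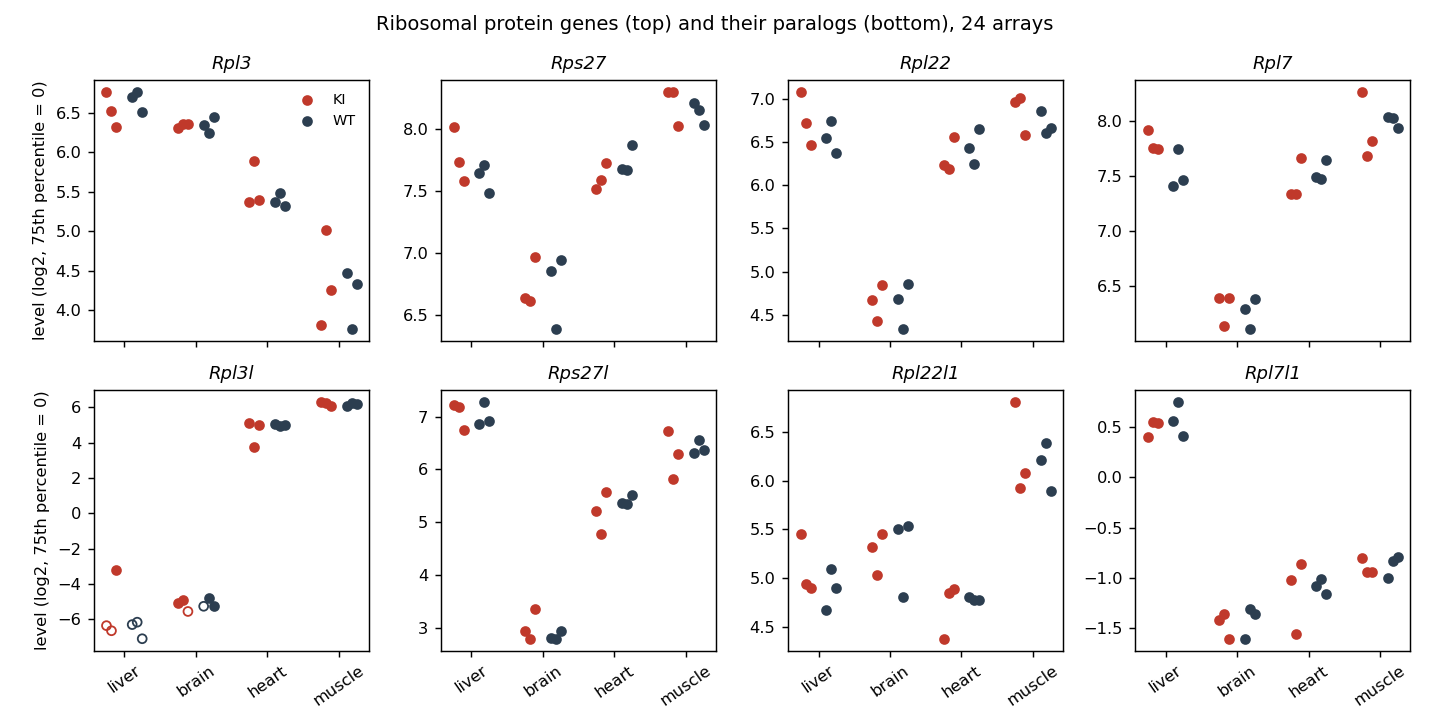
Levels (log2 relative to the array's 75th percentile) of 4 genes and their paralogs on the 24 arrays, by tissue and genotype, with hollow points for values not well above background. Rpl3 falls from brain (6.24 to 6.45) to muscle (3.77 to 5.01) while Rpl3l climbs from brain (-5.56 to -4.82) to muscle (6.06 to 6.34), and Rps27l is lowest in brain (2.79 to 3.35).

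Rps27 and Rps27l encode near-identical zinc-finger proteins of the small subunit, and Rps27l is known as a p53 target. Rps27l had the largest range of tissue means among members above background on all arrays, 4.10. It stood at 7.22, 7.19 and 6.74 in KI livers and at 6.87, 7.29 and 6.92 in WT livers. In brain it stood at 2.94, 2.79 and 3.35 in KI and at 2.81, 2.79 and 2.94 in WT. The heart values lay between 4.77 and 5.58 and the muscle values between 5.81 and 6.74. Liver, heart and brain did not overlap with each other, and the highest muscle value met the lowest liver value.

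Relative to the median member, Rps27l was higher in liver than in brain by 2.99 (SE 0.14, limma adjusted p = 1.46e-13) and lower in brain than in muscle by a difference of -2.16 (adjusted p = 2.8e-11). Brain minus heart was -1.44 (adjusted p = 1.38e-08), liver minus heart 1.55 (adjusted p = 5.66e-09), liver minus muscle 0.83 (adjusted p = 2.19e-05) and heart minus muscle -0.72 (adjusted p = 0.000187). All 6 directions were the same under quantile normalization and normexp. Rps27 also differed between tissues on the relative scale (F-test of limma, adjusted p = 0.0156), with a liver minus muscle difference of -0.33 (adjusted p = 0.00253). Its mean was 7.69 ± 0.18 in liver and 6.74 ± 0.23 in brain, while heart had 7.67 ± 0.12 and muscle 8.17 ± 0.12 (SD, n = 6 each), and its relative liver minus brain difference was -0.16 (adjusted p = 0.113).

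Rpl22 and Rpl22l1 encode RNA-binding proteins of the large subunit that can stand in for each other. Rpl22 was lowest in brain, at 4.34 to 4.85, and stood at 6.37 to 7.08 in liver, 6.19 to 6.64 in heart and 6.58 to 7.01 in muscle. Relative to the members, brain lay below liver by a difference of 0.90 (liver minus brain, SE 0.10, limma adjusted p = 1.2e-07), below heart by one of -0.83 (adjusted p = 5.29e-07) and below muscle by one of -0.89 (adjusted p = 1.82e-07). The other differences of Rpl22 did not pass the threshold. These sizes rest on the brighter of its 2 probes. The second probe had means of 3.03 in brain, 3.79 in liver, 3.20 in heart and 3.51 in muscle, and with both averaged the relative differences were 0.26 (liver minus brain), -0.13 (brain minus heart) and -0.13 (brain minus muscle).

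Rpl22l1 had another order. It stood at 6.81, 5.92 and 6.08 in KI muscle and at 6.21, 6.38 and 5.89 in WT muscle, above every array of the other tissues. Brain values were 4.81 to 5.53, liver values 4.68 to 5.46 and heart values 4.38 to 4.89. Relative to the members, it was lower in liver than in brain by a difference of -1.39 (SE 0.15, limma adjusted p = 7.84e-08) and higher in brain than in heart by 1.45 (adjusted p = 5.61e-08). It was lower in heart than in muscle by a difference of -1.14 (adjusted p = 3.64e-06). Brain minus muscle (0.31, adjusted p = 0.0673) did not pass the threshold and was -0.94 on the main scale.

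The remaining paralog symbols behaved differently from each other. Rpl7l1, a homolog of Rpl7, was highest in liver (0.40 to 0.75), while the brain values were -1.60 to -1.31, the heart values -1.55 to -0.86 and the mean in muscle -0.89 ± 0.09 (SD, n = 6). Its relative liver minus muscle difference was 1.56 (SE 0.11, limma adjusted p = 8.45e-11) and its liver minus heart difference 1.46 (adjusted p = 2.69e-10). Rps4l, which the gene table lists as a transcribed pseudogene, was lowest in muscle (0.31 to 1.68), below every array of brain (2.20 to 2.73), heart (2.60 to 3.64) and liver (1.84 to 3.21). Its relative brain minus muscle difference was 2.87 (SE 0.27, adjusted p = 6.91e-09).

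Rpl39l, a paralog of Rpl39 best known from male germ cells, had 0 of 6 liver arrays and all heart and muscle arrays well above background. On the main scale it was at least 2.23-fold higher in heart and at least 6.31-fold higher in muscle than in liver. The bound was set by the lowest signal above background on each liver array. Over the main and alternative values, its relative liver minus heart difference ran from -3.16 to -0.75, and liver minus muscle from -4.31 to -1.67. The size thus depends on the processing, and the bounds are given for the main scale only. In brain 3 of 6 arrays measured Rpl39l. Rpl39 itself, which lines the peptide exit tunnel, had a mean of 6.53 ± 0.12 in liver and of 5.14 ± 0.12 in brain, while heart had 6.09 ± 0.13 and muscle 6.22 ± 0.20 (SD, n = 6 each).

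Rplp0 and Rps2 were among the 6 members above background on all arrays with the largest ranges of tissue means on the main scale. Rplp0, the base of the ribosomal stalk that recruits elongation factors, stood at 9.49, 9.14 and 9.11 in KI muscle and at 9.37, 9.27 and 9.09 in WT muscle. In brain it stood at 6.55, 6.46 and 6.78 in KI and at 6.44, 6.25 and 6.70 in WT. In liver it spread from 7.34 to 8.73, with the lowest value in mouse C, and in heart from 8.09 to 8.62. Brain and muscle each stood apart from all other arrays. The relative brain minus muscle difference was -1.46 (SE 0.15, limma adjusted p = 4.19e-08), the liver minus muscle difference -0.97 (adjusted p = 1.19e-05) and the brain minus heart difference -0.92 (adjusted p = 1.9e-05). Rplp0 is often used to normalise other transcripts, and its tissue means had a range of 2.72 on the main scale. That size depended on the scaling. After quantile normalization its brain minus muscle difference was -0.83, and its heart minus muscle difference was -0.05, against -0.87 on the main scale.

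Rps2, which lines the channel by which mRNA enters the small subunit, was lowest in brain at 5.54 to 5.84. It stood at 7.66 to 7.97 in liver, 7.17 to 7.55 in heart and 7.59 to 7.80 in muscle. The relative liver minus brain difference was 0.99 (SE 0.08, limma adjusted p = 6.2e-10), and brain minus heart was -0.78 (adjusted p = 3.02e-08). At the other end, Rps15 (range 0.64), Rpl21 (0.68) and Rpl31 (0.70) had the smallest ranges on the main scale, and since the other members moved more, their relative ranges were 1.13, 1.15 and 0.56.

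Further members lay at the ends of the order in single tissues. After each member's own mean was taken off on the relative scale, Rpl13 (-0.42), Rps21 (-0.40) and Rps15a (-0.34) were, with Rpl22l1, the lowest in liver. In heart, Rps15a (0.31) was among the highest, and Rps26 (-0.44) and Rpl4 (-0.39) among the lowest. In muscle, Rps20 (0.51) and Rpl14 (0.50) were among the highest and Rpl21 (-0.59) among the lowest. These values rank the members and carry no test of their own. Some rest on the choice of probe or scaling. Over the main and alternative values, averaged probes included, the relative brain minus heart difference of Rps15a ran from -0.88 to 0.79. The brain minus muscle difference of Rpl14 ran from -0.58 to 0.29, so the sign of both was not settled.

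Grouped by role, the structural groups moved with the rest on the main scale, and 3 of the 5 groups turned direction under quantile normalization. Of all genes tested, 46.6% were higher in liver than in brain and 46.8% lower in brain than in muscle, and of the 83 members tested 78 and 79. All 4 stalk proteins (Rplp0, Rplp1, Rplp2, Rpl12) were higher in liver than in brain and lower in brain than in muscle, with medians of 1.05 and -1.53. All 8 proteins of the peptide exit tunnel and its rim were higher in liver than in brain (median 0.95) and lower in brain than in muscle (median -0.94). All 3 proteins of the mRNA entry channel did the same (medians 1.44 and -1.12), as did Rpl5 and Rpl11, which join 5S rRNA (medians 1.30 and -1.44). The 19 genes mutated in Diamond-Blackfan anaemia, a red cell disorder of ribosome shortage, were all higher in liver than in brain and lower in brain than in muscle (medians 1.02 and -1.38). After quantile normalization the liver minus brain median turned for the stalk (-0.36), the exit tunnel (-0.47) and the Diamond-Blackfan genes (-0.40), and came to 0.08 for the entry channel and 0.07 for Rpl5 and Rpl11.

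Probes disagreed for some genes. With 51 members that had several measured probes, all probes had the same sign for 46 in liver minus brain, 41 in brain minus heart and 39 in brain minus muscle, but for only 26 in liver minus muscle. Rpl3, Rpl3l, Rps27l, Rpl22l1, Rpl7l1 and Rps4l were each read from 1 probe. Whether probes of the members also bind RNA of paralogs or pseudogenes was not checked. The averaged probes of Rpl22 gave a liver minus brain difference of 1.39, against 2.02 for its brightest probe.

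The translation machinery around the ribosome was compared on the main scale. Of all genes tested, 46.6% were higher and 38% lower in liver than in brain, 44.5% were lower in brain than in heart, and 34.6% were lower and 29.8% higher in heart than in muscle. Among 77 tested genes of the mitochondrial ribosome, a separate ribosome that makes respiratory chain proteins, 67 were higher in liver than in brain and 1 was lower (median 1.12), and 72 were lower in brain than in heart (median -1.23). Here the directions were the same after quantile normalization (liver minus brain 0.45 and brain minus heart -0.99), unlike those of the cytosolic members. Of 46 assembly factors, which build ribosomes in the nucleolus, 31 were higher in liver than in brain and 9 lower, and 33 were lower in heart than in muscle and 4 higher. Of 34 initiation factors, 25 were higher in liver than in brain and 2 lower. Of 14 RNA polymerase I genes, which serve rRNA synthesis, 9 were higher in liver than in brain and 4 lower, and of 16 other TOP mRNAs, 14 were higher and 2 lower. Of 15 genes that link mTOR to the ribosome, 7 were higher and 4 lower. Under quantile normalization the liver minus brain medians were 0.13 for assembly factors, 0.17 for initiation factors, 0.35 for RNA polymerase I, 0.14 for the other TOP mRNAs and -0.22 for the mTOR genes, whose median turned. Of 12 elongation and termination factors, 9 were higher in liver than in brain and 3 lower, with a median of 0.14 under quantile normalization. Among the genes with large ranges, Eif4ebp1, a repressor of initiation that mTOR releases, had its lowest mean in brain (0.51), against 5.15 in liver, 5.29 in heart and 4.76 in muscle.

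The elongation factor pair Eef1a1 and Eef1a2, which deliver aminoacyl-tRNA to the ribosome, also ran in opposite directions between liver and muscle. Eef1a1 had its highest mean in liver (8.32) and its lowest in muscle (5.27), while brain had 6.47 and heart 6.02, with a liver minus muscle difference of 3.05 (SE 0.17, limma adjusted p = 5.23e-12). Eef1a2 means were -6.21 in liver, where 1 of 6 arrays measured it, against 3.80 in brain, 4.48 in heart and 5.20 in muscle. It was at least 963-fold higher in muscle than in liver (adjusted p = 8.31e-13), while normexp gave a smaller log2 difference of -8.11 for liver minus muscle. Unlike Rpl3l, Eef1a2 was well above background on all 6 brain arrays. The ribosomal proteins outside the symbol rule moved with the members on this scale: Rack1, a scaffold on the small subunit, had its lowest mean in brain (6.32), against 7.86 in liver, 7.62 in heart and 8.47 in muscle, and so did Rpl36al (4.46, against 6.45, 5.24 and 6.48 in the same order).

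The genotype comparison asked whether KI and WT mice of 1 tissue differed in these genes. Terf2ip itself did not pass the threshold in any tissue (KI minus WT -0.33 in liver and -0.12 in brain, with -0.15 in heart and -0.07 in muscle). A point mutation need not change the level of its mRNA, so this value does not check the labels. No member passed the threshold in liver (81 tested), brain (81), heart (83) or muscle (83), and limma called 0% of all genes in each of these comparisons. The mean over a mouse's 4 tissues gave 0 members too (0% of all genes), and so did the test of whether the genotype difference varied between tissues (0% of all genes). At an unadjusted p under 0.05, 1 of 81 members passed in liver, where 11.7% of all genes did, and 0 in brain, heart and muscle (all genes 0.791%, 1.59% and 0.829%). The mean over tissues gave 0 members (3.5% of all genes), and the interaction 0 as well (1.84%).

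The member that reached the unadjusted threshold in liver was Rpl14, a large-subunit protein. It stood at 8.20, 7.91 and 7.85 in KI livers and at 7.35, 7.83 and 7.47 in WT livers, so the lowest KI value lay just above the highest WT value. The difference was 0.44 (SE 0.17, unadjusted p = 0.0424 and adjusted p = 0.417 in limma). Rps15 (-0.32, adjusted p = 0.433) and Rpl29 (0.33, adjusted p = 0.455) came next in liver. In brain the smallest p belonged to Rps27l (0.18, unadjusted p = 0.339 in limma), in heart to Rpl32 (-0.23, unadjusted p = 0.196), in muscle to Rps7 (-0.30, unadjusted p = 0.153) and in the mean over tissues to Rpsa (0.16, unadjusted p = 0.0892).

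The median KI minus WT difference was 0.20 in liver (all genes 0.05) and 0.04 in brain (all genes -0.02), with -0.07 in heart (all genes -0.05) and 0.02 in muscle (all genes 0.03). The sign was not settled in heart, where quantile normalization gave 0.01, nor in muscle, where normexp gave -0.02. In brain it was -0.063 without WT mouse E, and the pair of arrays on slide 1 gave -0.02 with 36 of 81 members above 0, so the sign was not settled there either. In the mean over a mouse's tissues it was 0.04 (all genes 0.01), with 60 of 83 members above 0 (53.5% of all genes). In liver 69 of 81 members had a difference above 0, where 56.8% of all genes did, with single members between -0.34 and 0.44. The liver median was 0.08 after quantile normalization. In brain 66 of 81 were above 0 (42.9% of all genes), in heart 16 of 83 (38.6%) and in muscle 51 of 83 (56%). Members on the same array share its scaling, so these counts are not independent observations.

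**Figure D4:**
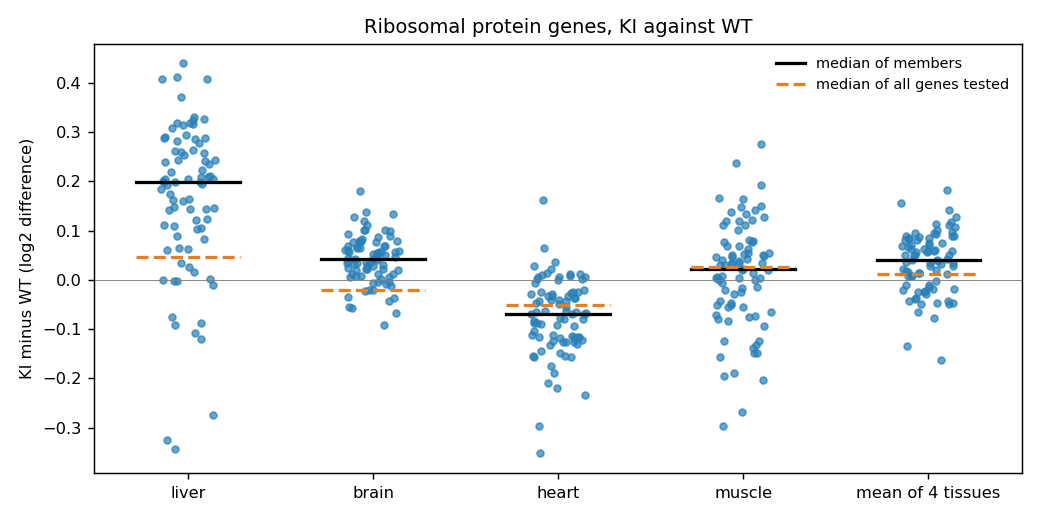
KI minus WT difference (log2) of each tested member in the 4 tissues and in the mean over each mouse's tissues, with the member median (black line) and the median of all genes tested (orange dashed line). The medians of the members lie between -0.07 (heart, 0.01 after quantile normalization) and 0.20 (liver), and no member passed the threshold.

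Members whose KI and WT values did not overlap were counted in each tissue. In liver there were 3, among them Rpl14 (higher in KI) and Rps15 (lower), where 19.8% of all genes did not overlap (12.8% higher and 7.04% lower). In brain there were 0 (2.82% of all genes), in heart 1 of the tested members (Rpl13a, lower in KI, against 4.82% of all genes and 2.93% lower) and in muscle 3 (Rpl26, Rpl32l and Rps18, lower in KI, against 3.6% of all genes and 1.33% lower). In the mean over tissues there were 10 (8.84% of all genes, 4.79% higher and 4.04% lower): Rpl23, Rpl27, Rpl37a, Rpl8, Rps12, Rps15a, Rps16, Rps28 and Rpsa were higher in KI and Rpl32l was lower. Rpsa, the laminin-receptor protein of the small subunit, had means of 7.89, 7.77 and 7.76 in KI mice and 7.64, 7.64 and 7.67 in WT mice. With 3 mice against 3, an exact permutation test of 1 gene cannot give a two-sided p below 0.10. In simulated data, limma recovered 27% (liver), 21% (brain), 23% (heart) and 31% (muscle) of true log2 changes of 1, and 81%, 80%, 82% and 92% of changes of 2 in the same order. The simulated noise was independent between genes and arrays, with each gene's spread pooled over all 8 groups. These shares therefore do not carry the spread of each tissue and do not rank the tissues.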

How the data were processed

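Each RNA sample was labelled with Cy3, per the labels, and put on 1 one-colour Agilent array. The authors extracted spot intensities with Feature Extraction (12.0.3.1 per the file headers), and the deposited intensity used here is the background-corrected processed signal, not normalized between arrays. The deposited score table (33912 features) held z-scores within each array (largest difference from the scanner values 0.005; column medians -0.1 to 0.095) and served as an alternative, with its centring per array known and its direction the same as the scanner signal.

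Control spots were left out, as were 121 to 347 outlier spots on each array, and the rest averaged into 55681 probes, with 573 values missing. Values were log2 of the deposited signal minus each array's 75th percentile (signal 269.5 to 2198), and 49.4% to 68.4% of probes were well above background. Probes were named through RefSeq GRCm38.p6 (50.9% of probes, 21370 genes, 5758 with several probes). The probe of highest mean over the 24 arrays stood for a gene. Sample columns without a sample numbered 0.

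A gene was tested if 1 group compared or more had it well above background on each of its 3 arrays. The fits used limma 3.58.1 (R 4.3.3, two-sided, Benjamini-Hochberg over all genes tested, threshold 0.05): KI minus WT per tissue, on means per mouse, and, over 8 groups on 24 arrays, tissue contrasts and the interaction. The relative scale subtracts the members' median on each array, of which each member is part. The same mouse number marks the same animal. Deviations of tissues from 1 mouse correlated at 0.020 on average over 11609 genes (lowest -0.264), and the replicate block is an alternative. Arrays lay on 3 slides. The number of arrays limits the precision.

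The members and all gene lists were chosen with earlier results of these data known. Named by rule were the paralog pairs, the 6 largest and 3 smallest ranges of tissue means, the 4 highest and 4 lowest members per tissue on the relative scale, the 3 smallest p per genotype comparison, Terf2ip, and at most 4 genes of each other list by range. Alternatives were quantile normalization, the median of named genes, the members' median, normexp (offset 50), the score table, averaged probes, no filter, the slide, the WT arrays alone and leaving out each array. A few genes named by these rules are not reported here. The scripts were tested on simulated data.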

Additional observations from a re-analysis of the deposited data

How the results depend on the processing

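With the mouse as a replicate block (random, duplicateCorrelation), liver minus brain again called 79 members, genotype 0, and the block changed no other call. No genotype comparison called a member under any alternative. Leaving out 1 array moved the median KI minus WT difference of the members between 0.087 and 0.290 in liver, between -0.063 (without WT mouse E) and 0.127 (without WT mouse F) in brain, between -0.134 and 0.0015 in heart, between -0.031 and 0.076 in muscle and between 0.011 and 0.071 in the mean over tissues. Tissue counts of called members ranged over 79 to 80 (liver minus brain), 32 to 43 (liver minus heart), 40 to 54 (liver minus muscle), 79 to 82 (brain minus heart), 81 (brain minus muscle) and 58 to 65 (heart minus muscle), and without the 3 arrays with transcripts of another tissue (chosen after seeing the data) they were 79, 42, 50, 81, 81 and 64. Without these and the heart of KI mouse B they were 80, 39, 51, 81, 81 and 58.

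Scaling decided the direction of the group. Quantile normalization gave medians of -0.30 (liver minus brain), -0.157 (liver minus heart), 0.160 (brain minus heart), 0.128 (brain minus muscle) and -0.011 with 34 calls (heart minus muscle). The score table gave -0.055 for liver minus heart. Centring on the median of named genes gave 1.50, -1.17, -1.82 and -0.65 for liver minus brain, brain minus heart, brain minus muscle and heart minus muscle. Centring on the members gave -0.031 with 44 calls (liver minus brain), -0.0088 (liver minus heart), -0.070 (liver minus muscle), 0.030 with 49 calls (brain minus heart), -0.103 (brain minus muscle) and -0.135 (heart minus muscle), as its construction requires. Normexp gave -1.17 for brain minus muscle and -0.34 for heart minus muscle, and averaged probes -1.20 for brain minus muscle. With the slide as a term, calls were 23 (liver minus heart), 14 (liver minus muscle) and 37 (heart minus muscle), with medians of -1.18 for brain minus muscle and -0.33 for heart minus muscle. Outside the members, Fau turned to -0.32 for liver minus brain after quantile normalization. The cause was not tested for the values other than those centred on the members.

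Of 215 alternatives for counts, 209 stayed within 1.5 times the main count. Of 180 for the members' median, 157 moved by less than the spread between replicates, 14 moved by more and 9 reversed. For named members the numbers were 440, 419, 21 and 0 on the relative scale and 120, 119, 1 and 0 for KI minus WT. For named genes of other lists they were 180, 112, 67 and 1.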
